A study of Homo sapiens with 56 samples.

Results

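The mitosis and spindle genes described here are 42 genes whose products drive entry into mitosis, build the spindle and part the chromosomes. They were chosen by name: every probe set annotated to 1 of 42 listed symbols and to no other gene was taken. Each gene was represented by its brightest probe set, averaged across the 56 arrays. The list was drawn up with earlier results of these data known, so counts of members beside shares of all genes are descriptions, not independent support. All 42 were measured, out of 11963 genes with an annotated symbol. By role they comprised 8 genes for cyclin-dependent kinase 1 and its partners, 6 for mitotic kinases and passenger proteins, 5 for the spindle checkpoint, 5 for the centromere and kinetochore, 4 for anaphase, 11 for kinesins and spindle or midzone proteins, and 3 for chromosomes and transcription.

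RNA came from PEO1 and PEO4, established lines of high-grade serous ovarian cancer, on 56 Affymetrix arrays, 28 per line. All cells were first deprived of hormone for 3 days, in charcoal-stripped serum and medium free of phenol red. Each line then had 7 groups of 4 arrays: 1 µM 4-hydroxytamoxifen with 1 nM estradiol (4OHT+E2), 1 µM 4-hydroxytamoxifen (4OHT), 1 µM fulvestrant with 1 nM estradiol (ICI+E2), 1 µM fulvestrant (here ICI, after its code name), 1 nM estradiol (E2), ethanol vehicle, and untreated cells. Treatment lasted 3 h, and the untreated cells were taken at 0 h. The PEO4 titles abbreviate 4-hydroxytamoxifen as Tam, which is read here as 4OHT, as the series text spells it out. Whether replicate arrays came from separate cultures is not stated, so each p-value measures only the spread between these arrays. Each line stands for 1 tumour cell line, and in such bulk RNA fewer cells in mitosis and less RNA per cell cannot be told apart.

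Mitotic transcripts are made late in the cell cycle, in G2 and M phase, and many are then broken down or shut off as cells return to G1. In resting and early cycling cells the DREAM complex holds many of these genes off through a promoter element called the CHR, and later the B-MYB and FOXM1 factors bind the same genes, often beside CCAAT boxes bound by NF-Y. Estradiol acts through estrogen receptor alpha. 4OHT, a triphenylethylene, is a selective modulator of that receptor, and fulvestrant, a steroid with a long alkyl side chain, is a full antagonist that promotes loss of the receptor.

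Promoter sequences are shown to let the elements above be seen in genes that differed in their response, and they are RefSeq sequences of build GRCh38.p14. The RefSeq promoter table held 34 of the 42 members. AURKA, BIRC5, BUB3, FOXM1, RACGAP1, TPX2, TTK and UBE2C are the others. Each stretch below is the 150 bases before the transcription start, written 5′ to 3′ on the gene's strand, and capitals mark each CHR (TTTGAA or TTCGAA) and each CCAAT box (CCAAT) on either strand. NDC80, DLGAP5, BUB1 and BUB1B were among the 5 members with the largest called fall under 4OHT in PEO1, the remaining 1 being AURKA. MKI67, PLK1 and CKS2, picked after their values were seen, hold both elements and span the range from a called fall to no call. The windows are chr18:2571407-2571556 on the plus strand for NDC80, chr14:55191586-55191735 on the minus strand for DLGAP5, chr2:110678064-110678213 on the minus strand for BUB1, chr15:40160919-40161068 on the plus strand for BUB1B, chr10:128126424-128126573 on the minus strand for MKI67, chr16:23678739-23678888 on the plus strand for PLK1 and chr9:89311045-89311194 on the plus strand for CKS2.
NDC80: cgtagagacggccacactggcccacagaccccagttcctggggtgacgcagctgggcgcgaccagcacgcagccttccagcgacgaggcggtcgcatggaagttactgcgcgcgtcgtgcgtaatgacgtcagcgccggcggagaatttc
DLGAP5: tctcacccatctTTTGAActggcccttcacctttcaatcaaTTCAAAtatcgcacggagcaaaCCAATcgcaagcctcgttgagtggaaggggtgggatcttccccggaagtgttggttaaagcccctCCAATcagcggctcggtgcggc
BUB1: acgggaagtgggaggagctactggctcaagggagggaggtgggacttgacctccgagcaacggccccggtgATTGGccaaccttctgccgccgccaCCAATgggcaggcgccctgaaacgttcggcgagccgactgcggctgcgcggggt
BUB1B: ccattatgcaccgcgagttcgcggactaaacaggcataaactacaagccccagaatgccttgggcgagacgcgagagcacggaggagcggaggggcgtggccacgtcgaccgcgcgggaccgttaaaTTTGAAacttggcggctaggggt
MKI67: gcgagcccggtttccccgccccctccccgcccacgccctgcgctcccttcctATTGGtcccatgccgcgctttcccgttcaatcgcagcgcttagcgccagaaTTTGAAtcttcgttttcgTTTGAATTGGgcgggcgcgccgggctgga
PLK1: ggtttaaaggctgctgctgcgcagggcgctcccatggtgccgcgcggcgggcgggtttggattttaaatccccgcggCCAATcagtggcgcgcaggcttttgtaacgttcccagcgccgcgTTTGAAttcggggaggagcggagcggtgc
CKS2: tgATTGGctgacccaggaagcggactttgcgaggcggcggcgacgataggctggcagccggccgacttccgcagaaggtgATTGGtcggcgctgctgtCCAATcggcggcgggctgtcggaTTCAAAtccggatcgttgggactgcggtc

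Within 250 bases before the start, a CHR was found for 20 of the 34 members (58.8%), against 17.2% of 27305 genes in the table. A CCAAT box was found for 30 members (88.2%), against 37.0% of all genes, and 19 members (55.9%) held both in 1 promoter, against 6.24% of all genes. The full palindromic estrogen response element was in 0 of the 34 member promoters and in 14 of all genes (0.0513%). Where a gene had several promoters, 1 with the letters was enough, and in MKI67 a CHR and a CCAAT box overlap. A match is a string of letters only, and no match speaks only for this window: the printed NDC80 stretch holds neither element.

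The deposited values were log2 expression values, and the median of an array was 7.41 to 7.49 for PEO1, with 7.85 to 7.92 for PEO4. Levels were therefore compared only within a line. Markers of the labelled tissue were present, and which line an array came from was not tested. The 10 epithelial and serous ovarian markers averaged 11.2 to 11.8 per array and the 9 stromal, endothelial and leukocyte markers 5.29 to 6.60. Of the second list, PTPRC, the leukocyte marker, lay at 4.71 or lower, and the collagen gene COL1A1 was highest, at 8.04 to 8.43 in PEO1 and 8.15 to 8.61 in PEO4. GREB1, a classical estrogen target, differed with E2 against vehicle by 1.97 ± 0.09 log2 units (SE) in PEO1 and by 1.69 ± 0.13 in PEO4, and ESR1 lay at 11.15 or higher on every array. The 3′ minus 5′ difference of the ACTB control probe sets, which grows as RNA degrades, was −0.25 to 0.14 in PEO1 and 0.24 to 3.41 in PEO4, with its highest values in ICI replicate 1 (3.41) and 0 h replicate 4 (2.28) of PEO4. PEO4 counts that moved without these arrays are given both ways.

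In PEO1 the mean over the 42 genes set the arrays with 4OHT apart from the rest. It was 10.44 to 10.50 on the 4OHT+E2 arrays and 10.41 to 10.54 on the 4OHT arrays, against 10.59 to 10.69 on the 20 arrays of the other 5 groups. No array of one set reached the range of the other. ACTB 3′ minus 5′ values overlapped, at −0.13 to 0.14 on those 8 arrays and −0.25 to 0.06 on the other 20, with means of 0.02 for 4OHT+E2, −0.05 for 4OHT and −0.11 for vehicle. For GAPDH the same difference was −0.060 to −0.020 on the 4OHT arrays, all above the −0.079 to −0.065 of the vehicle arrays, and the part of RNA quality in the member shift was not tested. The lowest group mean was that of 4OHT for 21 members and that of 4OHT+E2 for 18 members. Over all 7 PEO1 groups the moderated F test called 30 of 42 members, against 21.9% of all genes.

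**Figure D1:**
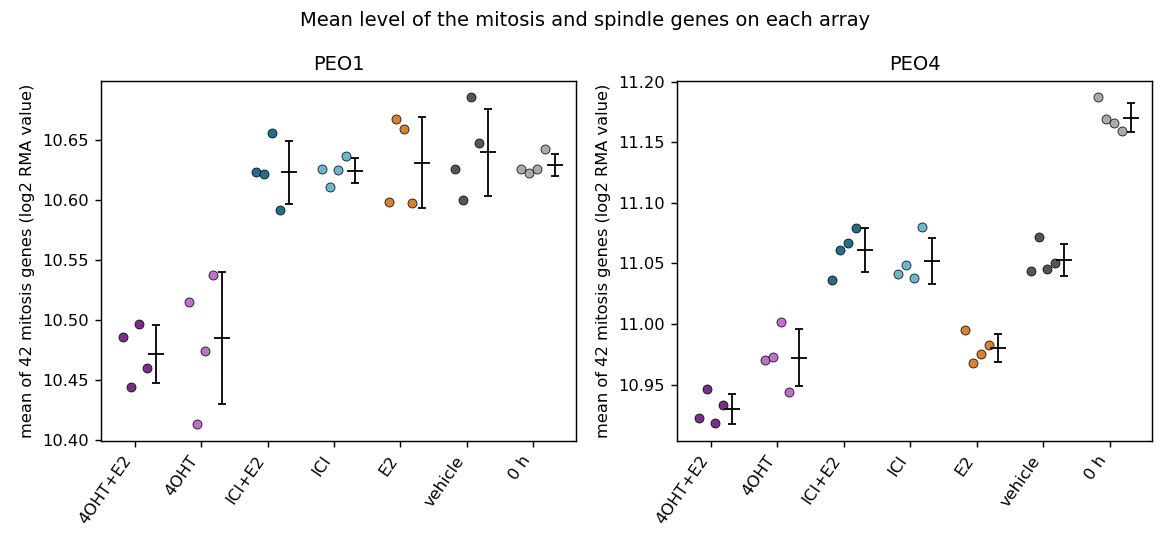
Mean log2 value of the 42 mitosis and spindle genes on each array (points), with the group mean and SD (bars, n = 4) for PEO1 (left) and PEO4 (right). All 8 PEO1 arrays with 4OHT lie between 10.41 and 10.54 and below every other PEO1 array, while in PEO4 the 0 h arrays are highest and the 4OHT+E2 arrays lowest.

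Treatment with 4OHT alone lowered 18 of 42 mitosis genes in PEO1 and raised none at the adjusted threshold of 0.05. Over all genes 4.83% were called lower. Members changed by a median of −0.15 log2 units, against −0.03 for all genes, and 41 of 42 lay below 0, as did 63.4% of all genes. On the linear scale the changes of the called members were −25.2% to −10.4%. After quantile normalization 13 members were called lower, against 2.32% of all genes, with a median of −0.11 against −0.01.

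Of the 5 centromere and kinetochore genes 3 fell, and NDC80 had the largest fall of all members. NDC80 encodes a subunit of the complex that ties kinetochores to microtubules. Its values were 9.20, 9.05, 9.12 and 9.24 with 4OHT, against 9.58, 9.47, 9.62 and 9.62 with vehicle. All 4OHT arrays lay below all vehicle arrays, a fall by 0.42 ± 0.07 (SE, adjusted p = 0.000155, limma). CENPE, a kinetochore motor, fell by 0.25 ± 0.06 (adjusted p = 0.00607), and CENPF, a kinetochore protein of late cell cycle cells, fell by 0.18 ± 0.06 (adjusted p = 0.0446). CENPA, the centromeric histone H3 variant, and ZWINT, a kinetochore scaffold protein, were not called.

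Of the mitotic kinases and passengers, 3 of 6 fell. AURKA, the kinase that matures centrosomes, had 10.97, 10.87, 11.05 and 11.03 with 4OHT, against 11.27, 11.19, 11.33 and 11.29 with vehicle. The groups did not overlap, and the fall was 0.29 ± 0.04 (adjusted p = 0.000109). TPX2, which activates AURKA on the spindle, fell by 0.17 ± 0.04 (adjusted p = 0.00774), and BIRC5, the survivin subunit of the chromosomal passenger complex, fell by 0.22 ± 0.05 (adjusted p = 0.0134). PLK1, a kinase of many mitotic steps, differed by −0.06 with a 95% interval of −0.18 to 0.07 and was not called.

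Of the 5 spindle checkpoint genes 2 fell. BUB1B, which encodes the checkpoint protein BUBR1, had 11.28, 11.01, 11.10 and 11.40 with 4OHT, against 11.49, 11.45, 11.55 and 11.48 with vehicle. Its 4OHT arrays were spread more widely than its vehicle arrays but all lay lower, by 0.30 ± 0.06 on average (adjusted p = 0.00143). BUB1, a kinase that recruits checkpoint proteins to kinetochores, fell by 0.31 ± 0.07 (adjusted p = 0.00396). BUB3, MAD2L1 and TTK were not called.

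Kinesins and spindle or midzone proteins gave 7 of 11 calls. DLGAP5, which stabilises kinetochore fibres, had 10.21, 10.11, 10.20 and 10.09 with 4OHT, against 10.41, 10.43, 10.55 and 10.49 with vehicle. The arrays did not overlap and the fall was 0.32 ± 0.04 (adjusted p = 3.39e-05). KIF2C, a kinesin that takes microtubules apart, had 10.60, 10.54, 10.34 and 10.49 with 4OHT, against 10.69, 10.76, 10.70 and 10.79 with vehicle. That was a fall by 0.24 ± 0.05 (adjusted p = 0.00187). KIF20A, a midzone kinesin, fell by 0.23 ± 0.05, and KIF4A, a chromosome-bound kinesin, fell by 0.18 ± 0.04. HMMR, PRC1 and KIF11 completed the group, with changes of −0.17, −0.16 and −0.23.

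MKI67, which encodes the Ki-67 proliferation antigen, had 9.57, 9.35, 9.46 and 9.53 with 4OHT, against 9.66, 9.69, 9.73 and 9.76 with vehicle. It fell by 0.23 ± 0.05 (adjusted p = 0.0032) with no overlap. Of the genes around cyclin-dependent kinase 1, CDKN3, a phosphatase of that kinase family, was the single one among the 18 by the brightest probe sets, with a change of −0.16. Other probe sets of CCNA2 (−0.30 ± 0.05, adjusted p = 0.00132) and CDK1 (−0.21 ± 0.04, adjusted p = 0.00482) were called lower there. CDC20, the activator of the anaphase-promoting complex, was the single call of the anaphase genes at −0.17. FOXM1, a transcription factor of G2 and M genes, differed by −0.02 with an interval of −0.08 to 0.05. CKS2, a small subunit of cyclin-dependent kinases, was the only member above 0, at 0.10 with an interval of −0.04 to 0.25.

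The count of 18 rested in part on the spread taken from all 7 groups: a fit with only the 4OHT and vehicle arrays called 5, and leaving out vehicle replicate C left 11. Of the 12 members with the smallest adjusted p, 11 kept their call without each array in turn. BIRC5 lost it without vehicle C, 4OHT B or 4OHT C.

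**Figure D2:**
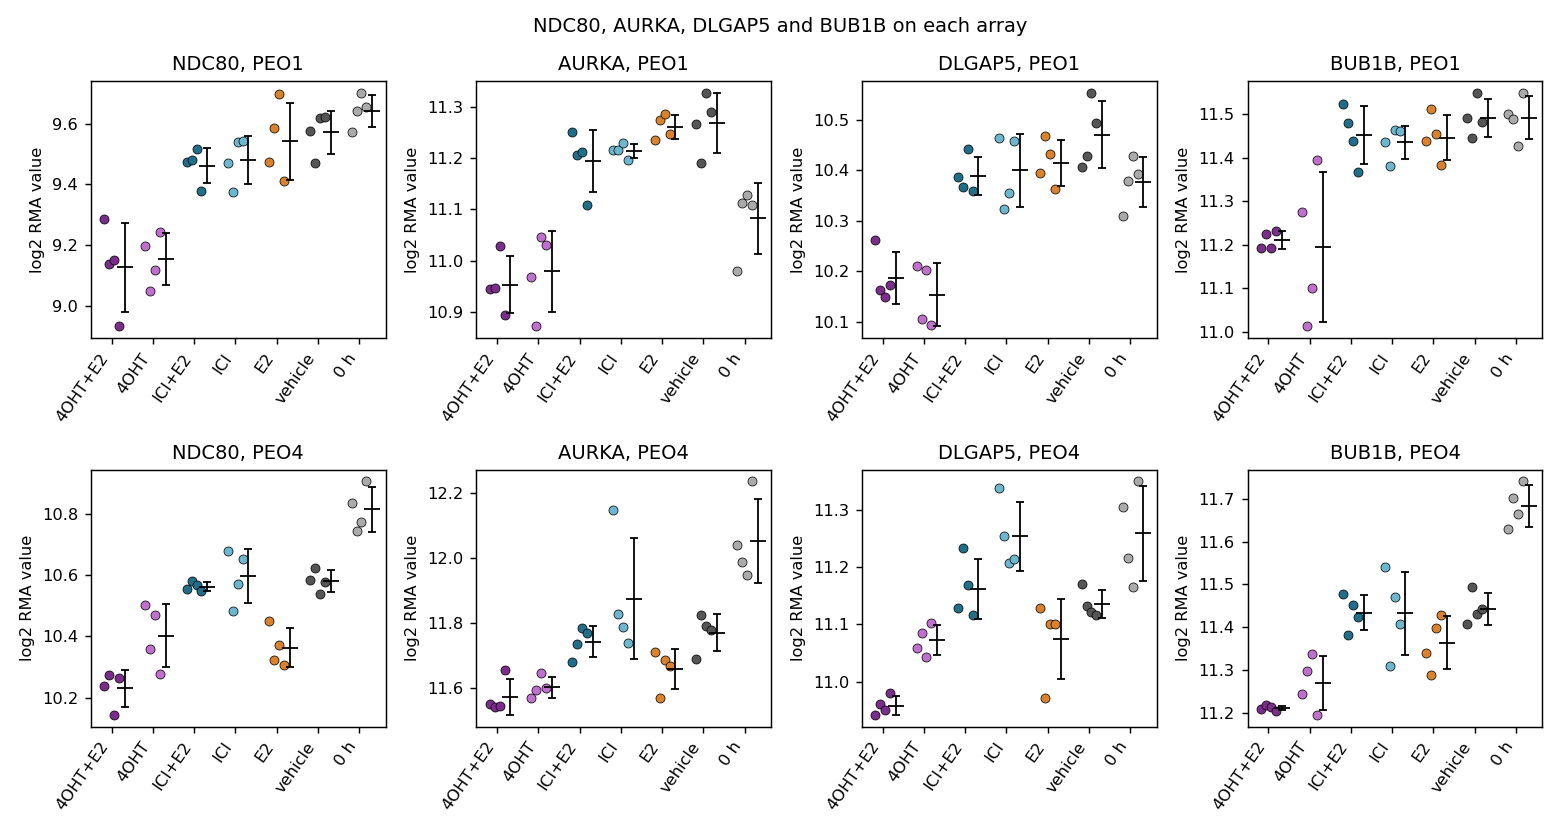
Log2 values of NDC80, AURKA, DLGAP5 and BUB1B on each array (points) with the group mean and SD (bars, n = 4) in PEO1 (top) and PEO4 (bottom). In PEO1 every array with 4OHT lies below every vehicle array for these genes, and the 0 h AURKA arrays also lie below every vehicle array.

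Mitosis genes were also lower when E2 was given together with 4OHT in PEO1. With 4OHT+E2, 24 of 42 members were lower than with vehicle, against 4.24% of all genes, and 0 were higher. The median change was −0.17. After quantile normalization 16 were called lower, against 3.39% of all genes. This comparison and the one above share the vehicle arrays.

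BUB1 had 9.93, 9.88, 9.90 and 9.82 with 4OHT+E2, against 10.23, 10.17, 10.34 and 10.32 with vehicle. All 4OHT+E2 arrays lay lower, and the fall was 0.38 ± 0.07 (adjusted p = 0.000368). NDC80 had 9.28, 9.14, 9.15 and 8.93 with 4OHT+E2 and fell by 0.45 ± 0.07 (adjusted p = 5.19e-05). AURKA fell by 0.32 ± 0.04 (adjusted p = 2.51e-05) and DLGAP5 by 0.28 ± 0.04 (adjusted p = 0.000101). CDK1, the kinase that starts mitosis, fell by 0.24 ± 0.06 (adjusted p = 0.0164), and TOP2A, the topoisomerase that untangles sister DNA, fell by 0.25 ± 0.06 (adjusted p = 0.00802). HMMR, a spindle protein that also binds hyaluronan, had 11.06, 10.90, 10.94 and 10.97 with 4OHT+E2, against 11.20, 11.12, 11.22 and 11.14 with vehicle, a fall by 0.20 ± 0.04 (adjusted p = 0.00307).

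By role, 4 of 6 kinases and passengers, 3 of 5 checkpoint genes, 4 of 8 genes around cyclin-dependent kinase 1, 3 of 5 kinetochore genes, 7 of 11 spindle genes, 2 of 3 chromosome and transcription genes and 1 of 4 anaphase genes fell. Only the compared groups in the fit left 6 calls. Leaving out vehicle C left 10, vehicle D 15 and 4OHT+E2 replicate B 14, and of the 12 members with the smallest adjusted p, NEK2 lost its call without vehicle C and CDK1 without vehicle A, vehicle C or 4OHT+E2 D.

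Set against E2 alone, 4OHT+E2 lowered 22 of 42 members in PEO1, against 8.48% of all genes, with a median change of −0.15. After quantile normalization the count was 15, against 5.53% of all genes. AURKA fell by 0.31 ± 0.04 (adjusted p = 1.63e-05), with 10.95, 10.95, 11.03 and 10.89 in 4OHT+E2 cells, against 11.24, 11.27, 11.29 and 11.25 in E2 cells. CENPA had 10.04, 10.18, 10.33 and 10.31 with 4OHT+E2, against 10.59, 10.60, 10.50 and 10.59 with E2. No array overlapped, and CENPA fell by 0.35 ± 0.06 (adjusted p = 7.02e-05). MKI67 had 9.39, 9.43, 9.59 and 9.54 with 4OHT+E2, against 9.71, 9.84, 9.84 and 9.77 with E2, a fall by 0.30 ± 0.05 (adjusted p = 8.19e-05). NDC80 fell by 0.42 ± 0.07, TPX2 by 0.18 ± 0.04 and TOP2A by 0.24 ± 0.06. The 12 members with the smallest adjusted p kept their calls without each array in turn, and only the compared groups in the fit left 8 calls of the 22.

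The comparison of 4OHT with vehicle and that of 4OHT+E2 with E2 share no array. They had 15 members called lower in common, which is 83.3% of the 18 and 68.2% of the 22. The 15 were AURKA, BIRC5, BUB1, BUB1B, CENPE, CENPF, DLGAP5, HMMR, KIF20A, KIF2C, KIF4A, MKI67, NDC80, PRC1 and TPX2. Signs matched for 41 of 42 members. Shared calls and matching signs were not counted over all genes, and both comparisons took their spread from the same fit. Across the 42 genes, which are not independent replicates, the changes correlated at r = 0.77, against r = 0.62 across all genes.

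**Figure D3:**
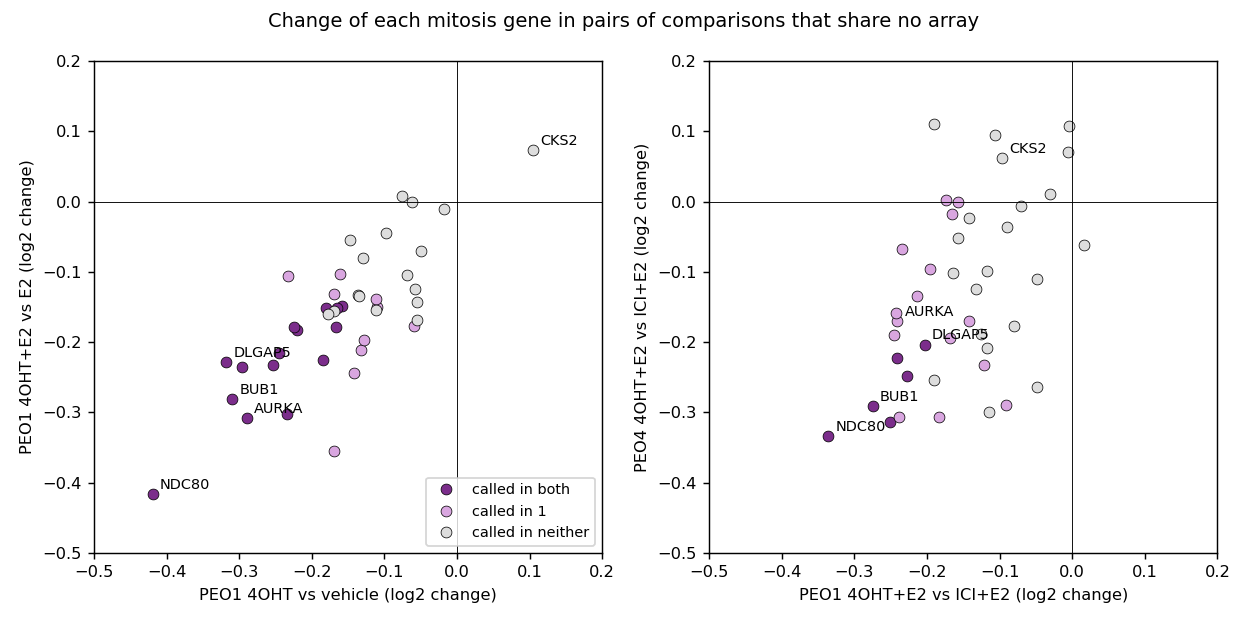
Log2 change of each of the 42 genes (points) in pairs of comparisons that share no array: 4OHT against vehicle and 4OHT+E2 against E2 in PEO1 (left), and 4OHT+E2 against ICI+E2 in PEO1 and in PEO4 (right). Colour gives the number of the 2 comparisons in which a gene was called, and NDC80 lies lowest on both axes of the left panel while CKS2 alone lies above 0 on both.

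At the same dose and time, 4OHT gave lower mitosis gene levels than fulvestrant in PEO1. In 4OHT cells 13 of 42 members were lower than in ICI cells, against 2.06% of all genes, with a median of −0.13. DLGAP5, with 10.46, 10.32, 10.36 and 10.46 in ICI cells, fell by 0.25 ± 0.04 in 4OHT cells (adjusted p = 0.00108) with no overlap. AURKA fell by 0.23 ± 0.04 (adjusted p = 0.00185) and MKI67, with 9.69, 9.76, 9.72 and 9.75 in ICI cells, by 0.25 ± 0.05 (adjusted p = 0.00229). NDC80 fell by 0.33 ± 0.07 (adjusted p = 0.00322), CENPE by 0.26 ± 0.06 (adjusted p = 0.00578) and KIF20A by 0.22 ± 0.05 (adjusted p = 0.00578).

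Where the compounds did not differ by the test, the intervals were narrow for some members and wide for others. PLK1 differed by −0.08 with a 95% interval of −0.20 to 0.04, FOXM1 by −0.03 with −0.10 to 0.03, and ZWINT by −0.04 with −0.11 to 0.03. CKS2 was higher in 4OHT cells by 0.19 (interval 0.05 to 0.33, adjusted p = 0.128) and was not called. After quantile normalization 8 members were called lower, against 1.42% of all genes, and 1 higher. The count was 20 with dim genes left out and 2 with only the compared groups. It was 8 without ICI A, ICI C or 4OHT B and 7 without 4OHT C, and among the 12 named calls those of BUB1B, BIRC5, CCNB2, PRC1 and KIF4A were lost in such refits.

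With E2 present, 15 of 42 members were lower in 4OHT+E2 cells than in ICI+E2 cells, against 2.64% of all genes, with a median of −0.16. AURKA fell by 0.24 ± 0.04 (adjusted p = 0.00135), with 11.25, 11.21, 11.21 and 11.11 in ICI+E2 cells. MKI67 fell by 0.23 ± 0.05 (adjusted p = 0.00459) and NDC80 by 0.34 ± 0.07 (adjusted p = 0.00265). TOP2A had 11.51, 11.45, 11.41 and 11.25 with 4OHT+E2, against 11.60, 11.55, 11.79 and 11.70 with ICI+E2, and fell by 0.25 ± 0.06 (adjusted p = 0.0113). PLK1 differed by −0.01 with an interval of −0.13 to 0.12.

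After quantile normalization 9 were called lower, against 1.62% of all genes, and only the compared groups in the fit called 0. The count was 9 without ICI+E2 A or 4OHT+E2 B and 6 without ICI+E2 C. Calls of AURKA, NDC80, MKI67, DLGAP5 and KIF2C held without each array in turn, and the other 7 of the 12 named did not. The comparisons of 4OHT with ICI, without and with E2, share no array, and they had 8 calls in common, 61.5% of the 13 and 53.3% of the 15. They took their spread from the same fit, and shared calls over all genes were not counted. Changes of the members correlated at r = 0.66, against r = 0.62 across all genes.

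E2 and fulvestrant moved few mitosis genes in PEO1 after 3 h. Against vehicle, E2 called 0 of 42 members (2.09% of all genes were called in either direction), ICI called 0 (0.134%), and ICI+E2 called 0 (0.0418%). At an unadjusted p under 0.05 there were 1, 1 and 2 members, and 1380, 558 and 745 of all 11963 genes. The 95% intervals of all members lay within −0.25 to 0.30 for E2, −0.24 to 0.23 for ICI and −0.25 to 0.26 for ICI+E2. CENPA had the smallest unadjusted p with E2, a difference of 0.19 ± 0.06 (adjusted p = 0.0898), and it passed the threshold under array weights, a variance trend or a filter on dim genes. MKI67 differed by 0.08 and BUB1 by −0.10, while another BUB1 probe set was called higher (0.465 ± 0.111, adjusted p = 0.0243). With ICI the smallest unadjusted p belonged to CENPA at −0.13, DLGAP5 at −0.07 and BUB1 at −0.10, and with ICI+E2 to HMMR at −0.13, CENPA at −0.12 and DLGAP5 at −0.08.

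Fulvestrant added to E2 lowered CENPA, the 1 call of 42 against 1.53% of all genes. CENPA had 10.29, 10.29, 10.25 and 10.24 with ICI+E2, against 10.59, 10.60, 10.50 and 10.59 with E2. The arrays did not overlap, and the fall by 0.31 ± 0.06 (adjusted p = 0.000879) held without each array in turn. A further probe set annotated to CENPA and another gene was not used. The CENPA probe set is of a kind that may also bind other transcripts, as are those of PTTG1, BUB3 and FOXM1.

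After 3 h in vehicle, PEO1 cells differed little from 0 h cells in these genes. AURKA and CENPA were higher, 2 of 42 against 5.79% of all genes, and CDC25B was lower, 1 of 42 against 1.64%. AURKA had 11.27, 11.19, 11.33 and 11.29 with vehicle, against 10.98, 11.11, 11.13 and 11.11 at 0 h, and rose by 0.19 ± 0.04 (adjusted p = 0.00728). Its other probe sets rose by 0.07 and 0.06 and were not called. CDC25B, the phosphatase that starts activation of cyclin-dependent kinase 1, had 10.83, 10.88, 10.92 and 10.83 with vehicle, against 11.12, 10.99, 11.07 and 10.92 at 0 h, and fell by 0.16 ± 0.04 (adjusted p = 0.022). CENPA had 10.40, 10.34, 10.41 and 10.39 with vehicle, against 10.27, 10.27, 10.06 and 10.21 at 0 h, and rose by 0.18 ± 0.06 (adjusted p = 0.0419). Only the compared groups in the fit called 0, the count was 1 without vehicle A, vehicle D or 0 h C, and the CDC25B and CENPA calls, but not that of AURKA, were lost without single arrays.

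**Figure D4:**
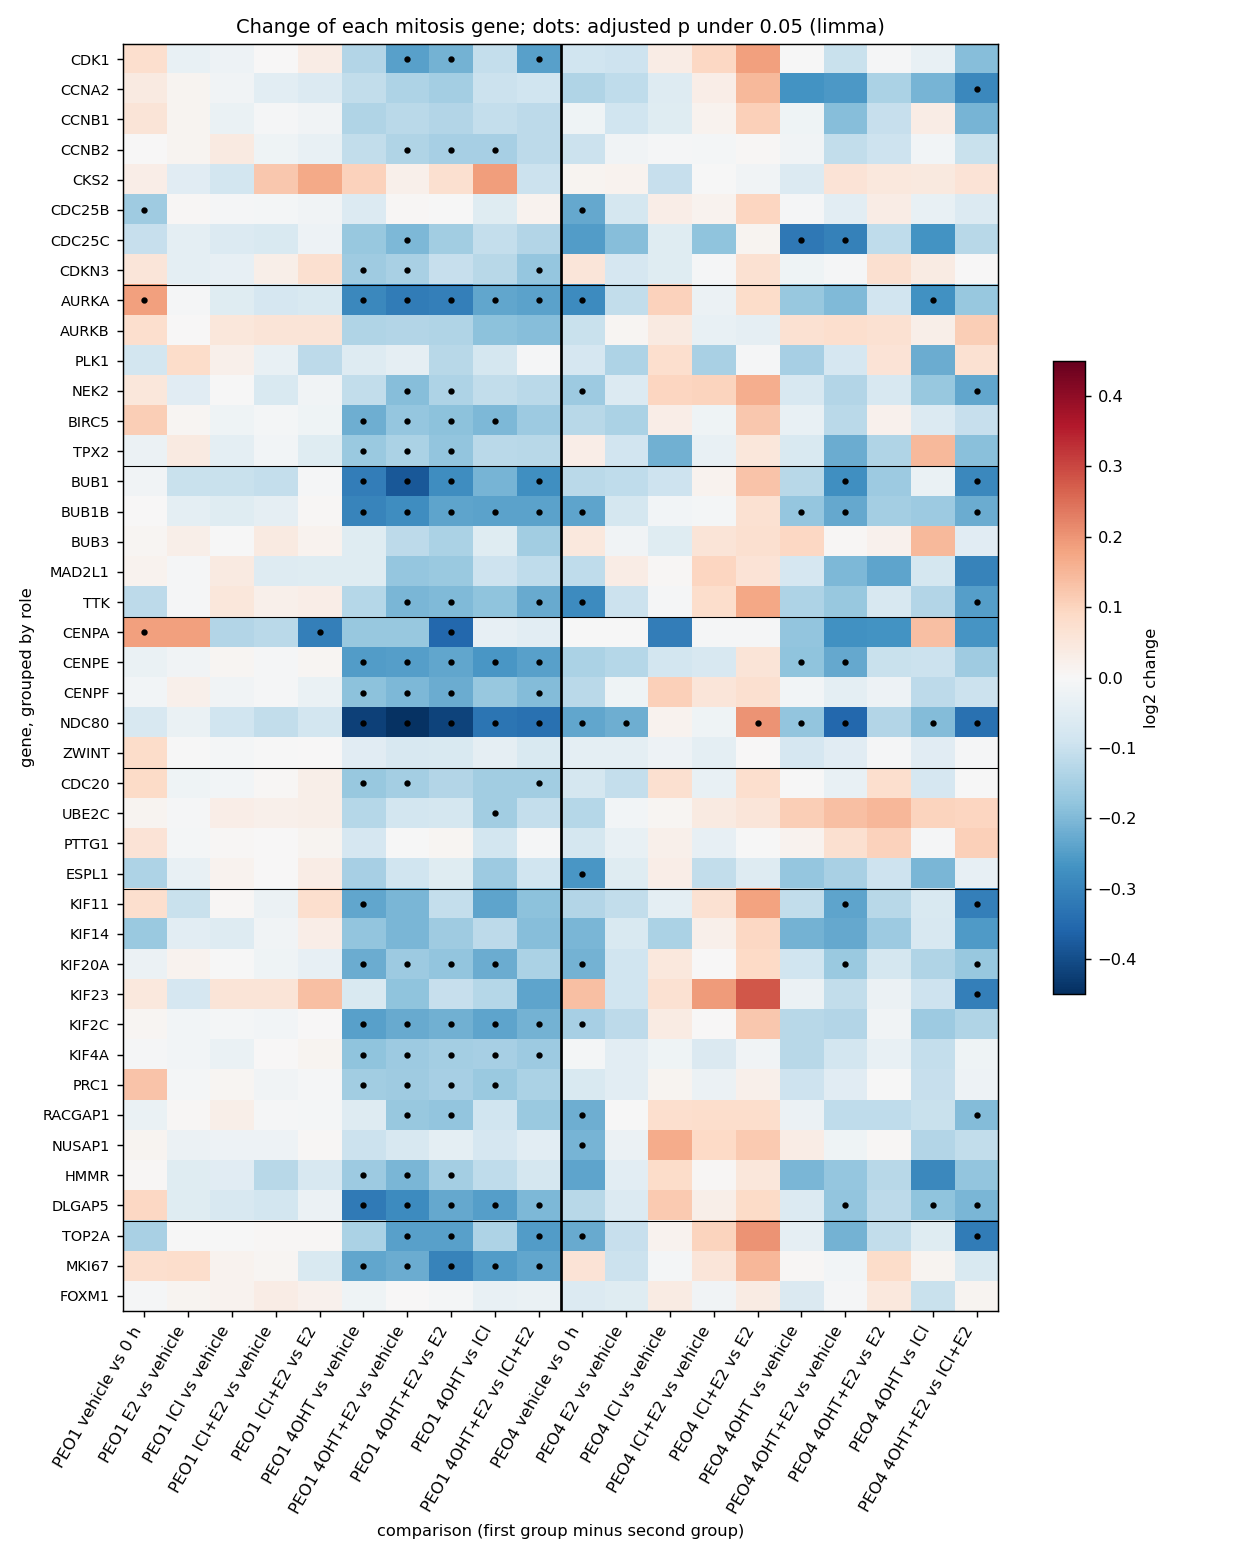
Log2 change of each of the 42 genes (rows, grouped by role) in 10 comparisons per line (columns, first group minus second), with a dot where the limma adjusted p was under 0.05. The PEO1 columns with 4OHT are blue for nearly all genes, most deeply for NDC80, and the PEO1 columns without 4OHT are pale apart from a few genes such as CENPA.

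PEO4 showed a different order of groups. Its mean over the 42 genes was 10.92 to 10.95 with 4OHT+E2, 10.94 to 11.00 with 4OHT, 11.04 to 11.08 with ICI+E2 and with ICI, 10.97 to 11.00 with E2, 11.04 to 11.07 with vehicle and 11.16 to 11.19 at 0 h. The E2 range thus lay within that of 4OHT, and the 0 h arrays lay above all others. The F test over 7 groups called 21 of 42 members, against 19.0% of all genes. With array weights it called 34, a count not set against the share of all genes. The highest group mean was that of 0 h for 34 members.

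In vehicle-treated PEO4 cells 12 of 42 members were lower than at 0 h, against 2.57% of all genes, with a median of −0.12. KIF20A had 11.36, 11.30, 11.30 and 11.37 with vehicle, against 11.59, 11.52, 11.54 and 11.53 at 0 h. The sets were well apart, and KIF20A fell by 0.21 ± 0.04 (adjusted p = 0.000775). BUB1B had 11.41, 11.49, 11.43 and 11.44 with vehicle, against 11.63, 11.70, 11.66 and 11.74 at 0 h, a fall by 0.24 ± 0.05 (adjusted p = 0.0012). NUSAP1, a microtubule bundling protein, fell by 0.21 ± 0.04 (adjusted p = 0.00315), and ESPL1, the separase that cuts cohesin, fell by 0.26 ± 0.06 (adjusted p = 0.00668).

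CDC25B had 10.43, 10.49, 10.51 and 10.51 with vehicle, against 10.69, 10.72, 10.78 and 10.69 at 0 h, a fall by 0.23 ± 0.05 (adjusted p = 0.00345). TTK, the checkpoint kinase MPS1, fell by 0.28 ± 0.07 (adjusted p = 0.00761), AURKA by 0.28 ± 0.07 (adjusted p = 0.00854) and NDC80 by 0.23 ± 0.05 (adjusted p = 0.00501). RACGAP1, NEK2, KIF2C and TOP2A were the other calls. RACGAP1 lost its call without vehicle 2. KIF2C and TOP2A lost theirs without any 1 of the compared arrays, and NEK2 without any of them but vehicle 1. The NEK2 change was −0.16 for the probe set used and 0.45 ± 0.33 for its other probe set. Other probe sets of NUSAP1 (0.01 ± 0.07) and KIF2C (0.03 ± 0.10) did not fall either. Those of ESPL1 (−0.26 ± 0.06), TOP2A (−0.21 ± 0.07) and AURKA (−0.14 ± 0.05 and −0.15 ± 0.10) were lower, and only that of ESPL1 was called. Array weights gave 19 calls, and the count was 13 without both PEO4 arrays of high ACTB difference and 8 to 11 without single arrays.

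With E2 at 3 h, 1 PEO4 member was called by its brightest probe set, while most others lay slightly below vehicle. E2 lowered NDC80, 1 of 42 against 0.46% of all genes, with 10.45, 10.32, 10.37 and 10.31 in E2 cells, against 10.59, 10.63, 10.54 and 10.58 in vehicle cells. The fall was 0.22 ± 0.05 (adjusted p = 0.0193), and the call was lost without vehicle 1, vehicle 2, E2 2 or E2 4. Another probe set of NUSAP1 was called lower with E2 (−0.32 ± 0.07, adjusted p = 0.0154). Members had a median of −0.08 with E2, against 0.00 for all genes, and 39 of 42 lay below 0, as did 48.7% of all genes. ACTB 3′ minus 5′ was 0.68 to 1.02 on the E2 arrays, against 0.24 to 0.57 on the vehicle arrays, and its part in this shift was not tested.

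ICI called 0 members against vehicle (0.159% of all genes) and ICI+E2 called 0 (0.00836%). At an unadjusted p under 0.05 there were 3 and 2 members, and 2097 and 916 of all 11963 genes. NUSAP1 differed by 0.17 ± 0.04 with ICI (adjusted p = 0.0891), DLGAP5 by 0.12 and CENPF by 0.11. With ICI+E2 the smallest unadjusted p belonged to KIF23, a midzone kinesin, at 0.19, CDC25C at −0.18 and NEK2 at 0.10. Array weights gave 5 calls for ICI, and leaving out ICI 4 gave 1. Against E2, NDC80 rose with ICI+E2, 1 of 42 against 0.61% of all genes, with 10.56, 10.58, 10.57 and 10.55 in ICI+E2 cells and a rise of 0.20 ± 0.05 (adjusted p = 0.0383). In that comparison the median over members was 0.07, against −0.01 for all genes, and 8 of 42 members lay below 0, against 54.4% of all genes. Of the members 12 had an unadjusted p under 0.05, as did 1436 of all 11963 genes. Another probe set of NUSAP1 was called higher there (0.32 ± 0.07, adjusted p = 0.0181). This comparison shares its E2 arrays with that of E2 against vehicle. The NDC80 call was lost in 7 of the refits without 1 array, those without E2 2, E2 3, E2 4 or any ICI+E2 array.

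With 4OHT, 4 of 42 PEO4 members were lower than with vehicle, against 2.75% of all genes, and the median was −0.07 against −0.00. CDC25C, the phosphatase that switches on cyclin-dependent kinase 1 at mitotic entry, had 8.04, 8.16, 8.23 and 8.09 with 4OHT, against 8.41, 8.53, 8.44 and 8.43 with vehicle. The arrays did not overlap and the fall was 0.32 ± 0.08 (adjusted p = 0.0136). BUB1B had 11.25, 11.30, 11.34 and 11.20 with 4OHT and fell by 0.17 ± 0.05 (adjusted p = 0.025). NDC80 fell by 0.18 ± 0.05 (adjusted p = 0.0433) and CENPE by 0.18 ± 0.05 (adjusted p = 0.0489).

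Quantile normalization gave 6 calls, against 3.13% of all genes, and only the compared groups gave 8. The count was 8 without both arrays of high ACTB difference, which lie in other groups, and 14 with array weights. It was 2 without vehicle 1, 4OHT 1 or 4OHT 2, 1 without vehicle 3, vehicle 4 or 4OHT 4, and 0 without vehicle 2. No call of the brightest probe sets thus held without each array in turn. Other probe sets of AURKA (−0.26 ± 0.05, adjusted p = 0.00103) and HMMR (−0.30 ± 0.05, adjusted p = 0.000959) were called lower in this comparison, and were not refitted without single arrays.

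With 4OHT+E2, 8 of 42 PEO4 members were lower than with vehicle, against 2.59% of all genes, with a median of −0.13 against 0.01. ACTB 3′ minus 5′ was 0.48 to 1.74 on the 4OHT+E2 arrays, against 0.24 to 0.57 on the vehicle arrays, and its part was not tested. NDC80 had 10.24, 10.27, 10.14 and 10.26 with 4OHT+E2, against 10.59, 10.63, 10.54 and 10.58 with vehicle, and fell by 0.35 ± 0.05 (adjusted p = 3.76e-05). BUB1 had 10.37, 10.39, 10.32 and 10.37 with 4OHT+E2, against 10.61, 10.63, 10.59 and 10.72 with vehicle, a fall by 0.28 ± 0.06 (adjusted p = 0.00213). Both sets of arrays were apart. BUB1B fell by 0.23 ± 0.05, KIF20A by 0.17 ± 0.04, CENPE by 0.23 ± 0.05 and DLGAP5 by 0.18 ± 0.04, and these 4 with NDC80 and BUB1 kept their calls without each array in turn. CDC25C fell by 0.30 ± 0.08 (adjusted p = 0.0163), a call lost without vehicle 2 or 4OHT+E2 1, and KIF11, the kinesin that pushes spindle poles apart, fell by 0.24 ± 0.07 (adjusted p = 0.0471), a call lost without any 1 array. Quantile normalization gave 13 calls, against 3.35% of all genes, and the count was 14 with only the compared groups, 16 without both arrays of high ACTB difference and 17 with array weights.

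Against E2, 4OHT+E2 called 0 of 42 PEO4 members, against 5.73% of all genes in either direction. An unadjusted p under 0.05 was found for 7 members and for 1931 of all 11963 genes. BUB1B differed by −0.15 ± 0.05 (adjusted p = 0.0519), BUB1 by −0.16 and DLGAP5 by −0.12. The count was 1 with a variance trend, with dim genes left out or with quantile normalization, 3 without E2 2, 4 without both arrays of high ACTB difference and 8 with array weights.

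Against fulvestrant at the same dose, 4OHT gave 3 lower members in PEO4, against 1.08% of all genes. AURKA had 11.57, 11.59, 11.65 and 11.60 with 4OHT, against 12.15, 11.83, 11.79 and 11.74 with ICI. The highest ICI value belonged to ICI 1, the array with the highest ACTB difference. AURKA fell by 0.27 ± 0.07 (adjusted p = 0.0242), DLGAP5 by 0.18 ± 0.04 (adjusted p = 0.0244) and NDC80 by 0.20 ± 0.05 (adjusted p = 0.0446). None of these calls held without ICI 1, and the count was also 0 without 4OHT 2 or with only the compared groups, 1 without 4OHT 1, 4OHT 4 or both arrays of high ACTB difference, and 5 or 6 without ICI 4 or ICI 2. Quantile normalization gave 6 calls, against 1.25% of all genes, as did a variance trend, with 10 when dim genes were left out and 16 with array weights.

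The compounds were also compared with E2 present in PEO4. In 4OHT+E2 cells 12 of 42 members were lower than in ICI+E2 cells, against 1.44% of all genes, with a median of −0.15 against 0.01, and quantile normalization also gave 12, against 2.11% of all genes. NDC80, with 10.56, 10.58, 10.57 and 10.55 in ICI+E2 cells, fell by 0.33 ± 0.05 (adjusted p = 0.000114). BUB1, with 10.69, 10.68, 10.63 and 10.62 in ICI+E2 cells, fell by 0.29 ± 0.06 (adjusted p = 0.00184). TOP2A had 11.83, 11.86, 11.72 and 11.66 with 4OHT+E2, against 12.05, 12.11, 12.08 and 12.09 with ICI+E2, and fell by 0.31 ± 0.07 (adjusted p = 0.00661). NEK2, a kinase that parts centrosomes, fell by 0.23 ± 0.05 (adjusted p = 0.00403).

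BUB1B, DLGAP5, KIF20A, KIF11, TTK, RACGAP1, KIF23 and CCNA2, the cyclin A2 gene, were the other calls. ACTB 3′ minus 5′ was 0.48 to 1.74 on the 4OHT+E2 arrays, against 0.48 to 0.79 on the ICI+E2 arrays, and its part was not tested. The count was 7 without ICI+E2 3, 22 without both arrays of high ACTB difference and 21 with array weights. Calls of KIF11, TTK, RACGAP1, KIF23 and CCNA2 were lost without single arrays, KIF11 without ICI+E2 3. Between PEO1 and PEO4, which share no array, the calls of this comparison had 6 members in common, 40% of the 15 and 50% of the 12: BUB1, BUB1B, DLGAP5, NDC80, TOP2A and TTK. Shared calls over all genes were not counted, and changes of the members correlated at r = 0.49, against r = 0.41 across all genes. For 4OHT against vehicle the lines shared 3 calls, of 18 and 4, with r = 0.34 for members and for all genes. For 4OHT+E2 against vehicle they shared 7, of 24 and 8, at r = 0.67 against 0.56. Within PEO4, 4OHT against ICI and 4OHT+E2 against ICI+E2 shared 2 calls, at r = 0.23 against 0.30. There, 4OHT against vehicle and 4OHT+E2 against E2 shared 0, at r = 0.63 against 0.58. For 4OHT+E2 against ICI+E2 in PEO4, AURKB differed by 0.11 with an interval of −0.03 to 0.25. PLK1 differed by 0.07 with −0.10 to 0.24, and neither was called.

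**Figure D5:**
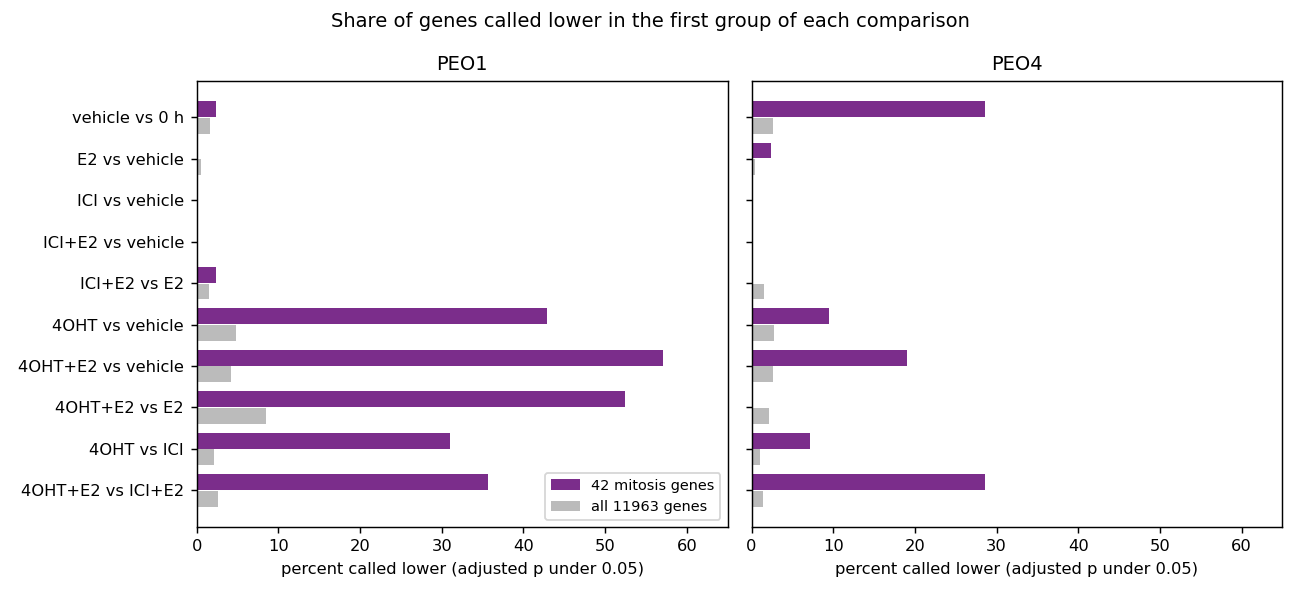
Percent of the 42 mitosis genes (purple) and of all 11963 genes (grey) called lower in the first group of each comparison (limma adjusted p under 0.05), PEO1 left and PEO4 right. In PEO1 the purple bars stand at 31.0% to 57.1% in the 5 comparisons with 4OHT, and in PEO4 the longest are vehicle against 0 h and 4OHT+E2 against ICI+E2, both at 28.6%.

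Tests of the difference in response between lines called few members. The response of vehicle cells relative to 0 h was lower in PEO4 than in PEO1 for 3 of 42, against 1.36% of all genes: AURKA by −0.47 ± 0.08 (adjusted p = 0.000122), NUSAP1 by −0.22 ± 0.06 (adjusted p = 0.016) and DLGAP5 by −0.22 ± 0.06 (adjusted p = 0.0365). By its brightest probe set AURKA rose in PEO1 and fell in PEO4. Its other probe sets had the same directions but were not called, at 0.07 and 0.06 in PEO1 and −0.14 and −0.15 in PEO4. The other probe set of NUSAP1 changed by −0.01 in PEO1 and 0.01 in PEO4. The count was 1 without PEO1 vehicle C, without PEO4 0 h replicate 4 or with only the compared groups, and 7 with dim genes left out or with array weights.

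For the response to 4OHT relative to vehicle, DLGAP5 was the 1 member called, against 0.97% of all genes, with a difference of 0.25 ± 0.06 (adjusted p = 0.018), where the PEO4 value was −0.06 ± 0.04 and was not called on its own. That call was lost after quantile normalization and without PEO1 vehicle C, with 2 calls without both arrays of high ACTB difference and 3 with array weights. For E2 there were 0 of 42 calls, against 0.493% of all genes, and for ICI 0, against 0.1%. At an unadjusted p under 0.05 there were 3 and 2 members, and 725 and 1159 of all 11963 genes. Array weights gave 2 calls for ICI. For the other 41 members a difference between the lines under 4OHT did not pass the test.

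Of the 42 genes, 13 were called lower in none of the 5 comparisons with 4OHT in either line: CCNB1, CKS2, CDC25B, AURKB, PLK1, BUB3, MAD2L1, ZWINT, PTTG1, ESPL1, KIF14, NUSAP1 and FOXM1. That holds for the brightest probe sets, since another of NUSAP1 was called lower under 4OHT+E2 against E2 in PEO1 (−0.25 ± 0.06, adjusted p = 0.0075). They include the cyclin B1 gene, the kinases PLK1 and AURKB, and securin, encoded by PTTG1. For CCNB1 in PEO1 the 4OHT difference was −0.14 with an interval of −0.23 to −0.04 (adjusted p = 0.0676). Across groups of a line NDC80 spanned the widest range of group means, 0.52 in PEO1 and 0.59 in PEO4, and FOXM1 the narrowest in PEO1, 0.05.

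Calls under 4OHT in PEO1 were counted by promoter letters, as a description. Of the 19 members with both elements 8 were called, of 11 with only a CCAAT box 3, and the member with only a CHR, BUB1B, was called. All 3 with neither, NDC80, CENPE and KIF2C, were called too. Within the printed set, DLGAP5 and MKI67 hold both elements and fell, while PLK1 and CKS2 hold both and were not called.

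Deviations of the members from their group means moved together in PEO1 more than those of other genes. The median correlation over 861 pairs of members was 0.19 across 28 arrays, against 0.02 over all genes, and 66.8% of the pairs lay above 0. In PEO4 the median was −0.01, against 0.03 over all genes. All members are read from the same arrays, so they are not independent of each other.

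Other genes of the cell cycle, in lists also chosen with earlier results of these data known, moved as well. Of 39 further mitotic genes, 13 fell under 4OHT in PEO1 and 0 rose. Among them HJURP, the chaperone of CENPA, fell by 0.31 ± 0.05, ASPM, a spindle pole protein, by 0.27 ± 0.05, and KIF15, a spindle kinesin, by 0.30 ± 0.05. Of 33 genes of G1/S and DNA replication, 10 fell and 0 rose in the same comparison, in which 4.83% of all genes were called lower, with ORC1, a subunit of the origin recognition complex, at −0.28 ± 0.05 and RRM1, the large subunit of ribonucleotide reductase, at −0.22 ± 0.05.

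Of 17 condensin and cohesin genes, 2 fell and 1 rose under 4OHT in PEO1, where 4.83% of all genes were called lower and 1.92% higher. NCAPH, a condensin subunit, fell by 0.24 ± 0.04, and NIPBL, the cohesin loader, rose by 0.25 ± 0.07. Of 8 subunits of the anaphase-promoting complex 0 were called. Of 19 regulators of mitotic transcription, MYBL1 fell by 0.31 ± 0.08, NFYA, an NF-Y subunit, fell by 0.22 ± 0.05, TFDP1, an E2F partner, fell by 0.16 ± 0.04, and CDKN1A, which encodes the inhibitor p21, rose by 0.29 ± 0.07.

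In PEO4, under 4OHT+E2 against vehicle 6 of 39 further mitotic genes fell, against 2.59% of all genes, among them BORA, an AURKA cofactor, by 0.27 ± 0.05 and WEE1, the kinase that holds cyclin-dependent kinase 1 off, by 0.38 ± 0.07. CDKN1A rose by 0.80 ± 0.10 there and by 0.89 ± 0.10 against ICI+E2, and 1 of 33 G1/S genes, POLE2, fell, a share near that of all genes. In vehicle cells relative to 0 h cells, 4 of 39 further mitotic genes fell and 3 of 33 G1/S genes rose in PEO4, and 3 further mitotic genes and 11 G1/S genes rose in PEO1. Of all genes 2.57% were called lower and 3.74% higher in PEO4, and 5.79% higher in PEO1, so the 3 further mitotic genes in PEO1 were near the share of all genes. CCNE1, the cyclin E1 gene, rose by 0.28 ± 0.06 in PEO1 and by 0.32 ± 0.07 in PEO4.

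Other probe sets of the same genes bear on these values, since 15 of the 42 members had more than 1. Calls of other probe sets came from a separate fit, adjusted over the 19064 probe sets with 1 gene symbol rather than over genes. In that fit the chosen CENPF probe set under 4OHT in PEO1 was not called (limma adjusted p = 0.0572). Nor were those of NEK2, KIF2C and TOP2A for vehicle against 0 h in PEO4. In 104 pairs of another probe set with a comparison where the chosen one was called, 91 had the same direction, 40 were also called and 0 were called in the other direction. In 436 pairs where the chosen probe set was not called, another was called in 29, of which 25 were lower, and 4 of the 29 ran against the direction of the chosen one. Among these calls were CCNA2, HMMR and MKI67 under 4OHT+E2 against vehicle in PEO4. For CDC25C under 4OHT+E2 against E2 in PEO1, other probe sets were called in opposite directions, at −0.38 and 0.26. The counts of members called therefore depend on the probe set chosen.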

How the data were processed

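RNA from 56 arrays (Affymetrix human expression arrays, 4 per group, 7 groups in each of PEO1 and PEO4) was analysed. The deposited values are log2 expression values; RMA made them, per the submitters' processing notes, and its version is not given in these sources. RMA gives no detection call, and the number of arrays limits the precision. The lines had different array medians, so comparisons within a line came from separate fits, and only differences were compared between lines. Tests of those differences came from a joint fit of all 56 arrays, with the variance pooled over both lines. That fit had 42 residual degrees of freedom, against 21 within a line.

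From 22277 probe sets, those naming several genes (1043) were left out and 1 per gene was kept, the one with the highest mean, giving 11963 genes. limma 3.58.1 in R 4.3.3 fitted the 7 groups of a line with lmFit and eBayes, and all 14 groups for tests between lines. The p-values were adjusted by Benjamini-Hochberg over all genes at 0.05. The fit was tested on simulated data. Up to 12 called members per comparison were named by smallest adjusted p, with array values for up to 6, and up to 4 genes per further list. Where none was called, the 3 members with the smallest unadjusted p were named. Members and lists were chosen with earlier results of these data known. Alternatives were quantile normalization, variance trend, dim genes left out, mean over probe sets, array weights, only the compared groups, a replicate block, and leaving out single arrays or both arrays of high ACTB difference. Whether replicate labels pair the arrays is not stated. Same-label deviations had a median correlation of 0.04 in PEO1 (−0.40 to 0.34) and 0.06 in PEO4 (−0.45 to 0.42), against −0.01 for other labels in both lines. The main fit used no pairing.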

Additional observations from a re-analysis of the deposited data

Results flagged for a closer look

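In 106 groups of 4 arrays checked for 1 array far from the other 3, 5 stood out, and chance alone flags about 1 in 20 such groups. Both CENPA groups of PEO4 were added to that check after their values had been seen. CENPA was 8.74 on PEO4 ICI replicate 1, against 9.98 to 10.12 on the other ICI arrays, and 9.47 on PEO4 0 h replicate 4, against 10.17 to 10.23 on the others. Those are the arrays with the highest ACTB 3′ minus 5′ difference, 3.41 and 2.28, and its part in the CENPA values was not tested. AURKA was 10.98 on PEO1 0 h replicate A, against 11.11 to 11.13 on the other 0 h arrays. On PEO1 E2 replicate C, CENPA was 10.50, against 10.59 to 10.60, and TPX2 was 11.15, against 11.06 to 11.07.

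By the brightest probe sets, the response of vehicle cells relative to 0 h cells differed between the lines in limma's test of the difference. PEO4 minus PEO1, it differed by −0.47 for AURKA, −0.22 for DLGAP5 and −0.22 for NUSAP1. The response to 4OHT relative to vehicle differed by 0.25 for DLGAP5.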

How the results depend on the processing

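Counts below are of members called, of 42. Shares of all genes are given above only for the main fit and, in part, for quantile normalization. Counts under the other settings are not set against such a share, which may also have moved. With only the compared groups, PEO1 counts were 0 for vehicle against 0 h, 5 for 4OHT and 6 for 4OHT+E2 against vehicle, 8 for 4OHT+E2 against E2, 2 for 4OHT against ICI and 0 for 4OHT+E2 against ICI+E2. In PEO4 they were 8 for 4OHT and 14 for 4OHT+E2 against vehicle and 0 for 4OHT against ICI, and 1 for the line difference of vehicle against 0 h. Array weights gave 1 for E2 in PEO1. In PEO4 they gave 19 for vehicle against 0 h, 3 for E2, 5 for ICI, 14 for 4OHT and 17 for 4OHT+E2 against vehicle, 8 for ICI+E2 and 8 for 4OHT+E2 against E2, 16 for 4OHT against ICI, 21 for 4OHT+E2 against ICI+E2 and 34 over all groups. For the line differences they gave 7 for vehicle against 0 h, 2 for ICI and 3 for 4OHT.

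Quantile normalization gave 9 for 4OHT+E2 against ICI+E2 in PEO1, and in PEO4 13 for 4OHT+E2 against vehicle, 1 for 4OHT+E2 against E2 and 6 for 4OHT against ICI, with 0 for the line difference under 4OHT. Leaving out dim genes gave 1 for E2 and 20 for 4OHT against ICI in PEO1, 1 for 4OHT+E2 against E2 and 10 for 4OHT against ICI in PEO4, and 7 for the line difference of vehicle against 0 h. A variance trend gave 1 for E2 in PEO1, and 1 for 4OHT+E2 against E2 and 6 for 4OHT against ICI in PEO4. The mean over probe sets gave 2 for E2 against vehicle, 2 for ICI+E2 against E2 and 2 for 4OHT+E2 against E2 in PEO4. It turned the sign of BUB1 under E2 in PEO1 (0.065), of NEK2 in PEO4 vehicle against 0 h (0.144) and of AURKA in the line difference under ICI (−0.021). Without both PEO4 arrays of high ACTB difference, counts were 8 for 4OHT and 16 for 4OHT+E2 against vehicle, 4 for 4OHT+E2 against E2, 1 for 4OHT against ICI, 22 for 4OHT+E2 against ICI+E2 and 2 for the line difference under 4OHT. The causes of these shifts were not tested.

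Without single arrays, PEO1 counts were 1 to 3 for vehicle against 0 h, 11 to 18 for 4OHT and 10 to 23 for 4OHT+E2 against vehicle, 15 to 23 for 4OHT+E2 against E2, 7 to 16 for 4OHT against ICI and 6 to 19 for 4OHT+E2 against ICI+E2. PEO4 counts were 8 to 11 for vehicle against 0 h, 0 to 1 for E2, 0 to 1 for ICI, 0 to 3 for 4OHT and 6 to 9 for 4OHT+E2 against vehicle, 0 to 1 for ICI+E2 and 0 to 3 for 4OHT+E2 against E2, 0 to 6 for 4OHT against ICI and 7 to 12 for 4OHT+E2 against ICI+E2. The line differences gave 1 to 3 for vehicle against 0 h and 0 to 1 for 4OHT. With a replicate block, counts in the 5 PEO1 comparisons with 4OHT were 15, 20, 22, 9 and 13, and no count moved by over 1.5 times. Refits were followed for 109 called pairs of member and comparison, those of the up to 12 members with the smallest adjusted p in each comparison. Of these 1712 refits, 1711 kept the direction and 1446 kept the call. Called members beyond the 12 were not followed.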
